A study of Macaca mulatta with 24 samples.

Results

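Motile cilia are the beating hairs of multiciliated cells, and their core, the axoneme, is a ring of microtubule doublets moved by dynein motors. Dynein arms drive the sliding of the doublets, radial spokes and the central apparatus regulate it, and intraflagellar transport carries building blocks along the cilium. In the endometrium, ciliated cells lie in the epithelium beside secretory cells, and FOXJ1 is the transcription factor best known for switching on the motile cilium programme. The genes described here are the motile cilium genes on a rhesus monkey array, among them CFAP100, which encodes an axonemal protein and is listed on the array as LOC716433, coiled-coil domain containing 37. They were chosen by gene name: axonemal dyneins (DNAH, DNAI, DNAL), radial spoke proteins (RSPH), sperm-associated antigens (SPAG), intraflagellar transport proteins (IFT), tektins (TEKT), CFAP genes and 7 single genes. The rule found 25 of 11246 genes with a symbol, each read from its probe with the highest mean. HYDIN, CCDC39, CCDC40, TPPP3 and CAPS carry no probe under that deposited name.

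Endometrial RNA of rhesus monkeys (Macaca mulatta) came from mated cycles with proven conception or from non-mated cycles with normal ovulation, sampled on day 2, 4 or 6 after ovulation. Each of the 6 groups had 4 arrays, 24 in all. Source names count the conception days from fertilization while descriptions count them from ovulation. For 8 non-mated samples the title says day 2 but every other label says day 4 or 6, and the latter was followed. The samples are whole endometrium, so fewer ciliated cells and less RNA per ciliated cell cannot be told apart. The labels do not say whether replicate arrays stand for different animals. The p-values below therefore speak for the scatter among these arrays alone, and that scatter may be technical.

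A level here is the log2 fluorescence signal minus the 75th percentile of the array, so that 0 is as bright as that percentile. Detection was similar on 21 arrays, where the share of probes well above background ran from 53.3% to 71.5%. The other 3, called weak here, were non-mated day 2 replicate 3 (4.33%), non-mated day 4 replicate 1 (37.9%) and non-mated day 4 replicate 2 (21.8%). On these arrays undetected genes often share a floor value. On the first of them DNAH5, DNAL1, RSPH4A and TEKT3 all read -0.28, above their level on every other array, and undetected CFAP100 and DNAL4 also read -0.28, the lowest value of their group. To be tested, a gene had to be detected above background in 3 or more arrays of some group, and 21 of the 25 genes were. DNAH5 (an outer arm heavy chain), DNAL1 (an outer arm light chain), RSPH4A (a spoke head protein) and TEKT3 (a tektin) were not. RSPH4A was well above background on 0 of 24 arrays, DNAH5 on 2, DNAL1 on 4 and TEKT3 on 8.

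The probes of the 4 genes whose values the results turn on are 60 bases long and are printed 5′ to 3′, with runs of 4 or more G or C in capitals, because their base composition differs. Coordinates are those of rheMac2 in the file headers. The CFAP100 probe lies at chr2:46212185-46212244 on the plus strand and is 51.7% G or C. The DNAI2 probe lies at chr16:69593389-69593448 on the plus strand and is 50% G or C. The FOXJ1 probe lies at chr16:71477070-71477129 on the minus strand and, at 73.3%, is richer in G and C than 99.2% of the 20217 probes, whose median is 41.7%. The TEKT4 probe lies at chr15:106352895-106352954 on the plus strand and is 60.0% G or C. No annotation of that build was used here, so exon or UTR positions are not given.
CFAP100: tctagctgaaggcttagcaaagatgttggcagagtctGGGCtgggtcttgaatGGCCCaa
DNAI2: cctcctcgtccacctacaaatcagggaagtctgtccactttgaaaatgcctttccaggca
FOXJ1: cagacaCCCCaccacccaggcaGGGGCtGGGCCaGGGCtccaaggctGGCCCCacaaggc
TEKT4: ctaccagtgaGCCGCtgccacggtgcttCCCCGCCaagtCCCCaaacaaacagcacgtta

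CFAP100 fell between day 2 and day 6 of conception cycles and was the only motile cilium gene that passed the test in any comparison. Its conception day 2 levels were -1.11, -0.87, 0.20 and -0.01, whereas by day 6 of those cycles they were -4.97, -3.33, -3.46 and -3.39. Every day 6 array lay below every day 2 array, and the lowest of them was not well above background. The log2 difference was -3.34 ± 0.56 (SE, n = 4 against 4), a 10.1-fold lower signal, with an adjusted p of 0.0327 in limma. That call is 1 of 21 motile cilium genes, beside 0.0164% of all 12202 features (2 features). Over the 6 groups together CFAP100 also differed (adjusted p = 0.00554 in limma's F-test), where 0.041% of all features passed, though not with quantile normalization (adjusted p = 0.900).

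**Figure D1:**
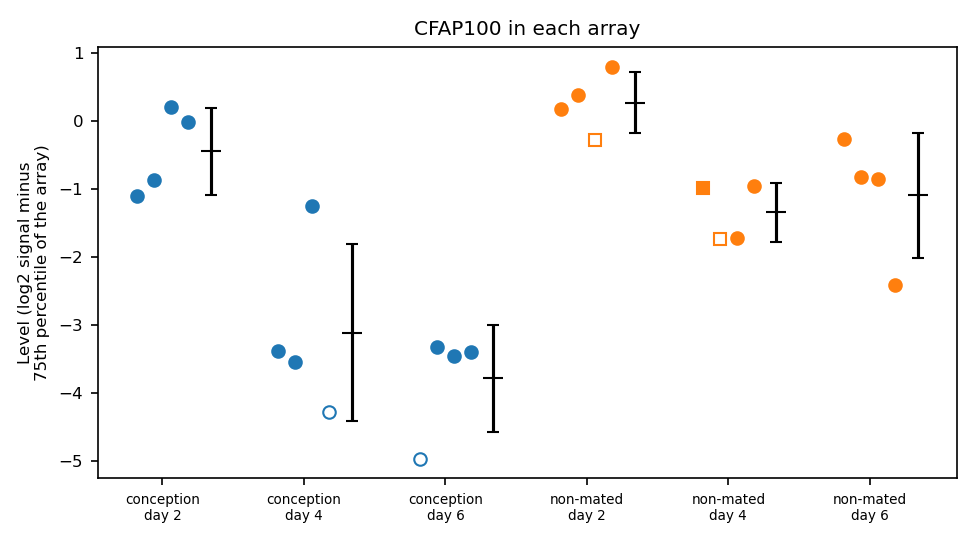
Level of CFAP100 on each array (vertical axis, log2 signal minus the array's 75th percentile) by cycle type and day (horizontal axis). Blue is conception and orange non-mated, open symbols were not well above background, squares are weak arrays, and bars give the mean and SD of 4 arrays. Conception day 6 arrays sit between -4.97 and -3.33, below all 4 conception day 2 arrays.

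At conception day 4 the levels of CFAP100 were -3.39, -3.54, -1.26 and -4.28, with replicate 3 far above the other arrays. CFAP100 was well above background on 3 of these 4 arrays. The non-mated day 2 arrays read 0.17, 0.37, -0.28 (weak) and 0.80. The day 4 arrays of non-mated cycles read -0.98 (weak), -1.73 (weak), -1.72 and -0.95. Both -0.28 and -1.73 are floor values, which undetected DNAH5 and RSPH4A share in these groups. Non-mated day 6 gave -0.27, -0.83, -0.86 and -2.41. Non-mated arrays were thus higher than most conception arrays of days 4 and 6. Group means ran from 0.26 ± 0.45 at non-mated day 2 through -0.45 ± 0.64 at conception day 2, -1.09 ± 0.92 at non-mated day 6, -1.35 ± 0.44 at non-mated day 4 and -3.12 ± 1.30 at conception day 4 to -3.79 ± 0.79 at conception day 6 (SD, n = 4 each). Each pair of neighbours in that order overlaps.

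Conception and non-mated cycles were compared day by day. The log2 difference of CFAP100, conception minus non-mated, was -2.69 ± 0.56 (SE) at day 6, with no overlap between the groups (a pattern that 1.74% of all features show in this direction), but it did not pass over all features (adjusted p = 0.207 in limma). The difference was -1.77 ± 0.56 at day 4 and -0.71 at day 2, and -1.73 ± 0.32 over the 3 days (adjusted p = 0.064 in limma for the last). Without the weak arrays these were -1.78 at day 4, -0.89 at day 2 and -1.79 over the 3 days (adjusted p = 0.189). With quantile normalization the day 2 value was 0.46, so its direction turns, and the value over the 3 days was -0.91 (adjusted p = 0.649). Over the 12 alternative settings the adjusted p for the 3 days ran from 0.0459 (normexp) to 0.649, and it was under 0.05 in 2 of them. It was also under 0.05 when replicate 3 of conception day 4 (0.00459) or replicate 4 of non-mated day 6 (0.0235) was left out. Between day 2 and day 6 of non-mated cycles the difference was -1.36 ± 0.56 (-1.54 without the weak arrays), and the test of whether the 2 cycle types differ in that step gave -1.98 ± 0.79 (adjusted p = 0.903 in limma, and -1.80 with 0.935 without the weak arrays). The step in conception cycles is therefore not shown to differ from the one in non-mated cycles.

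The conception fall from day 2 to day 6 was -3.52 and -3.16 within the scan days (2 arrays against 2) and -3.66 and -3.38 on the slides that held both groups (1 against 1). By scan range, inferred from the saturation value in the file headers, it was -2.73 among single-range arrays (1 day 6 array against 3 day 2 arrays). Among extended-range arrays the fall was -4.12 (3 against 1). Its adjusted p in limma was 0.0156 without the 3 weak arrays. It rose to 0.0663 with normexp background correction, to 1.000 with quantile normalization, to 0.111 without the filter on dim probes and to 0.0588 with the scan range as a term. Leaving out single arrays kept the difference between -3.56 and -2.94, but 12 of 24 omissions lost the call, with an adjusted p of up to 0.267. In conception cycles these were replicates 2, 3 and 4 of day 2, replicate 1 of day 4, and replicates 1, 2 and 3 of day 6. In the other cycles, whose arrays enter through the shared variance and the adjustment, they were replicates 1 and 2 of day 2, replicate 1 of day 4, and replicates 2 and 3 of day 6. Marker lists were cut to genes with a probe, so some chosen markers are missing. The epithelial list (all 5 with a probe tested) had a summed linear level of 49.3 to 84.4 at conception day 2 and 34.1 to 71.4 at conception day 6. The multiciliated cell list (all 6 with a probe tested, FOXJ1, TPPP3 and CAPS among them) ran from 5.15 to 9.29 and from 5.12 to 6.98. Smooth muscle markers (4 of the 6 with a probe tested) ran from 6.63 to 259 and from 13.1 to 35.8. Stroma, endothelium, leukocyte and proliferation lists also overlapped between these days, and the part of cell makeup in the fall was not tested.

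**Figure D2:**
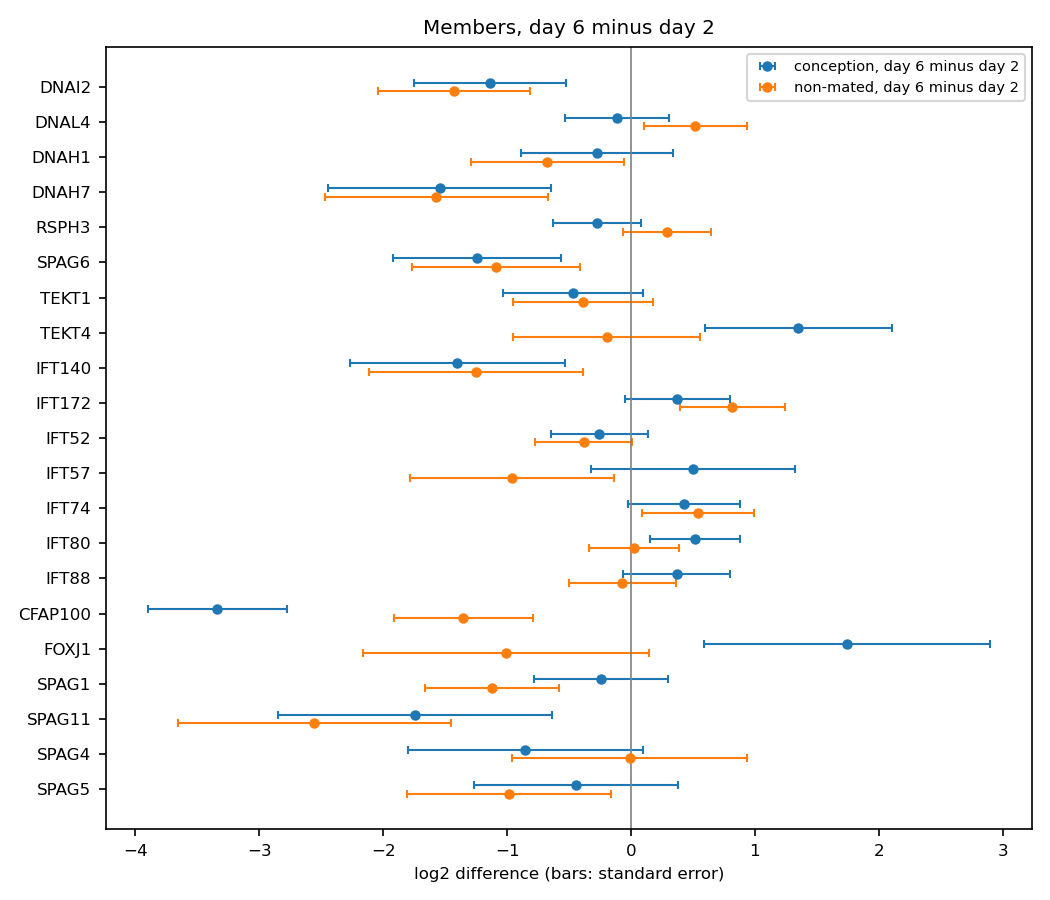
Log2 difference, day 6 minus day 2 (horizontal axis, bars are standard errors of the fit), of the 21 tested genes (vertical axis) in conception (blue) and non-mated cycles (orange). CFAP100 in conception cycles, at -3.34, lies farthest from 0.

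Among the dynein genes, which encode the motor arms, the outer arm intermediate chain DNAI2 had the smallest p in the F-test over the 6 groups (unadjusted p = 0.027, adjusted p = 0.955 in limma). Conception day 2 arrays gave it levels of -2.62, -1.36, -1.25 and -1.52, and the arrays of conception day 4 gave -2.85, -2.67, -2.93 and -3.08. These groups do not overlap (as for 2.15% of all features in that direction), and the log2 difference was -1.20 ± 0.61 (SE; adjusted p = 1.000 in limma, against 0.338 without the weak arrays). Conception day 6 read -2.51, -2.77, -3.48 and -2.55, -1.14 ± 0.61 from day 2, and replicate 1 of day 2 lies among these values. In non-mated cycles DNAI2 read -1.62, -1.84, 1.08 and -1.10 at day 2 and -1.88, -1.83, -2.32 and -3.17 at day 6, a difference of -1.43 ± 0.61 that was -0.78 without the weak arrays. The light chain DNAL4 stayed between 0.34 and 1.37 outside the weak arrays. DNAH7, an inner arm heavy chain, was well above background on 4 of 4 conception day 2 arrays and 0 of 4 at day 6. Its log2 difference of -1.54 ± 0.90 (SE) did not pass. The groups overlap, with -4.26 on the lowest day 2 array and -3.85 on the highest day 6 array. Day 6 values below the lowest signal detected on their array were raised to it, and the means then lie 1.75-fold apart. DNAH7 met the filter only through conception day 2, which favours a fall from that group. DNAH1, the other inner arm heavy chain, ranged from -3.82 to -2.13 at conception day 2 and from -3.78 to -2.58 at conception day 6, which overlap.

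FOXJ1 and the tektin TEKT4, whose product lines the inside of microtubules, had higher values at conception day 6 than at day 2 but did not pass the test. FOXJ1 read -3.43, -3.41, -3.07 and -4.32 at conception day 2 and -2.83, -1.55, -1.15 and -1.73 at day 6, with no overlap. TEKT4 read -3.50, -3.77, -3.41 and -4.39 at day 2 and -2.54, -1.93, -2.48 and -2.73 at day 6, again with no overlap. The log2 differences were 1.74 ± 1.15 and 1.35 ± 0.75 (SE), both with an adjusted p of 0.998 in limma. Without the 3 weak arrays the spread shrank and the adjusted p fell to 0.0601 for FOXJ1 and 0.0917 for TEKT4, still above the threshold. With normexp background correction the log2 differences were 0.54 for FOXJ1 and 0.16 for TEKT4. TEKT4 at conception day 6 also lay above all non-mated day 6 arrays (-2.93, -3.37, -3.21 and -2.96), as 2.57% of all features did. IFT57, a transport protein, also had no overlap, with a log2 difference of 0.50 that turned to -0.085 with normexp. Groups without overlap in this comparison made up 5.33% of all features in the higher direction and 2.39% in the lower, against 3 and 1 of the 21 genes.

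FOXJ1 had an SD of 2.88 at non-mated day 2 and 3.00 at non-mated day 4, the groups with weak arrays, and of 0.54 to 0.72 in the other 4 groups. At non-mated day 2 it read -2.79, -3.25, 2.39 and -3.86, and at non-mated day 4 -2.34, 3.41, -3.29 and -1.70, where 2.39 and 3.41 come from weak arrays and were well above background there. Conception minus non-mated was -1.68 ± 1.15 at day 2 with these arrays and -0.26 without them. At day 6, where no array is weak, non-mated FOXJ1 read -2.44, -2.93, -2.46 and -3.72, the log2 difference was 1.07 (0.28 to 1.26 over the alternatives), and conception day 6 replicate 1 lay among the non-mated arrays. The base composition of its probe is given above; its part in the weak-array values was not tested.

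**Figure D3:**
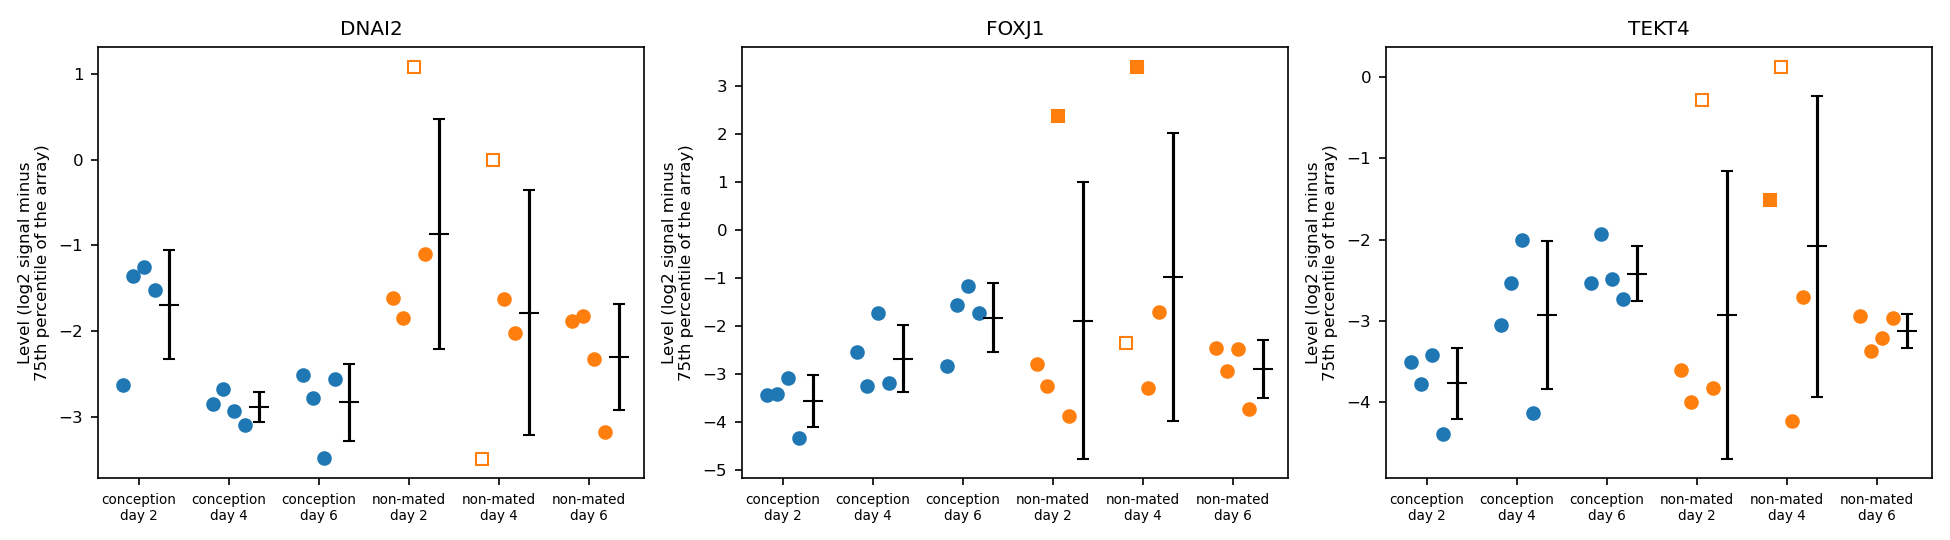
Levels of DNAI2, FOXJ1 and TEKT4 on each array (vertical axes, log2 signal minus the array's 75th percentile) by group; colours and symbols are as for CFAP100, and bars give the mean and SD of 4 arrays. FOXJ1 stands at 2.39 and 3.41 on 2 weak arrays, against at most -1.15 on the arrays that are not weak.

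No spoke, central apparatus or tektin gene passed. The spoke gene RSPH3 lay between -0.81 and 0.67 on the arrays that are not weak. SPAG6, a central apparatus protein, read -1.98, -2.31, -1.78 and -3.82 at conception day 2 and -4.07, -2.01, -3.38 and -5.40 at day 6, and the groups overlap (log2 difference -1.24 ± 0.68, SE). SPAG6 was well above background on 2 of 4 arrays at conception day 6. TEKT1, another tektin, ranged from -1.26 to -0.01 at conception day 2 and from -1.96 to -0.15 at day 6.

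The 7 intraflagellar transport genes all passed the filter and none passed the test. These proteins also serve primary cilia, which many cell types carry. IFT172 had levels of 1.69 to 2.74 outside the weak arrays, and IFT140 was well above background on 11 of 24 arrays. From conception day 2 to day 6, 5 of the 7 were above 0 and 2 below (48.2% and 51.8% of all features), with a median of 0.37. IFT140, among those below, was well above background on 0 of 4 arrays at conception day 6. It met the filter only through conception day 2. The remaining SPAG genes encode no axoneme parts by textbook knowledge. SPAG1 is a dynein assembly factor, SPAG4 a nuclear envelope protein, SPAG5 a mitotic spindle protein and SPAG11 a defensin-like peptide. SPAG11 was well above background on 10 of 24 arrays, and SPAG5 ranged from -2.39 to 2.24.

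From conception day 2 to day 6, 14 of the 21 tested genes were below 0, as were 51.8% of all features, and the median was -0.27 against -0.02. DNAH7 and IFT140, both below 0, met the filter only through conception day 2, which favours a fall from that group. SPAG11 met it only through the day 2 groups of both cycle types, which favours a fall from day 2 in each. SPAG4, also below 0 in conception cycles, met it only through conception day 2 and non-mated day 6. From non-mated day 2 to day 6, 16 of the 21 were below 0 (60.4% of all features) with a median of -0.68, which was -0.21 without the weak arrays. Conception minus non-mated had medians of -0.47, -0.39 and -0.13 at days 2, 4 and 6, and of -0.054, -0.21 and -0.13 without the weak arrays. Quantile normalization turned the medians at day 2 (0.42), day 4 (0.039) and for non-mated day 6 minus day 2 (0.13) above 0. For conception minus non-mated at days 2, 4 and 6, 0 of the 21 genes passed limma's adjusted threshold, beside 0%, 0% and 0.0082% of all features. On these days 0, 3 and 1 of the genes had an unadjusted p under 0.05 in limma (2.5%, 6.1% and 2.38% of all features). In the other comparisons with no call among the 21 genes, the share of all features that passed was 0.0082% for the mean of the 3 days and 0% for the steps between neighbouring days, for non-mated day 6 minus day 2 and for the difference between cycle types in the day 6 minus day 2 step.

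The genes with the smallest p in each comparison, apart from those above, are given as values, with the value without the weak arrays where these enter. For conception minus non-mated at day 2 the log2 differences were 0.33 for RSPH3 (0.27 without), 0.38 for IFT172 (-0.054), 0.31 for DNAL4 (0.01), -0.84 for SPAG1 (-0.39) and -0.82 for DNAI2 (-0.17). At day 4 they were 0.88 for DNAL4 (0.22 without), 0.54 for IFT52 (0.02), 0.47 for RSPH3 (-0.036), -2.41 for SPAG11 (-2.10) and -1.10 for DNAI2 (-1.06). SPAG11 was well above background on 1 of 4 arrays in each day 4 group, 3 in each day 2 group, 0 at conception day 6 and 2 at non-mated day 6, so its differences rest largely on undetected values. Most of the other differences shrink or turn sign without the weak arrays. At day 6, which has no weak array, they were 0.52 for IFT88, 0.41 for IFT80, 0.85 for SPAG5, -1.51 for SPAG4 and -0.88 for SPAG6. SPAG4 was well above background on 1 of 4 conception and 3 of 4 non-mated day 6 arrays, and SPAG6 on 2 and 3. The last 2 differences thus rest partly on undetected values. SPAG4 met the filter only through conception day 2 and non-mated day 6, which favours a lower value at conception day 6.

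Over the 3 days together DNAI2 was at -0.82 (-0.59 without the weak arrays), SPAG11 at -1.28 (-0.91), DNAL4 at 0.29 (-0.032), IFT80 at 0.21 (0.21) and IFT52 at 0.22 (0.08). Within conception cycles, day 4 minus day 2 gave 0.46 for IFT80, 0.84 for TEKT4, 0.41 for IFT172 and -1.18 for IFT140. IFT140 met the filter only through conception day 2, which favours a lower value at day 4. Day 6 minus day 4 gave 0.49 for IFT88, 0.86 for FOXJ1, 0.61 for SPAG5, -1.32 for SPAG6, -0.67 for CFAP100 and -0.46 for IFT52, and day 6 minus day 2 gave 0.52 for IFT80. None of these steps passed. Within non-mated cycles, day 4 minus day 2 gave 0.58 for IFT172 (0.62 without), 0.53 for IFT74 (0.61), 0.84 for TEKT4 (0.33), -1.61 for CFAP100 (-1.78), -0.91 for DNAI2 (-0.30) and -0.50 for RSPH3 (-0.061). Day 6 minus day 4 gave 1.07 for DNAL4 (0.41 without), 0.80 for RSPH3 (0.29), 0.24 for IFT172 (-0.24), -2.53 for SPAG11 (-2.22), -1.54 for IFT57 (0.090) and -1.91 for FOXJ1 (-0.39). Day 6 minus day 2 gave 0.82 for IFT172 (0.38 without), 0.52 for DNAL4 (0.22), 0.54 for IFT74 (0.30) and -2.56 for SPAG11 (-1.75). SPAG11 met the filter only through the day 2 groups, which favours that fall. The difference between cycle types in the day 6 minus day 2 step was 2.75 for FOXJ1 (1.33 without), 1.54 for TEKT4 (0.66), 1.46 for IFT57 (0.64), -0.57 for RSPH3 (-0.51) and -0.63 for DNAL4 (-0.33). In the F-test over the 6 groups, DNAI2, SPAG11, SPAG6, DNAL4, DNAH7, IFT140, RSPH3, FOXJ1 and TEKT4 followed CFAP100, each with an adjusted p of 0.955 in limma.

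**Figure D4:**
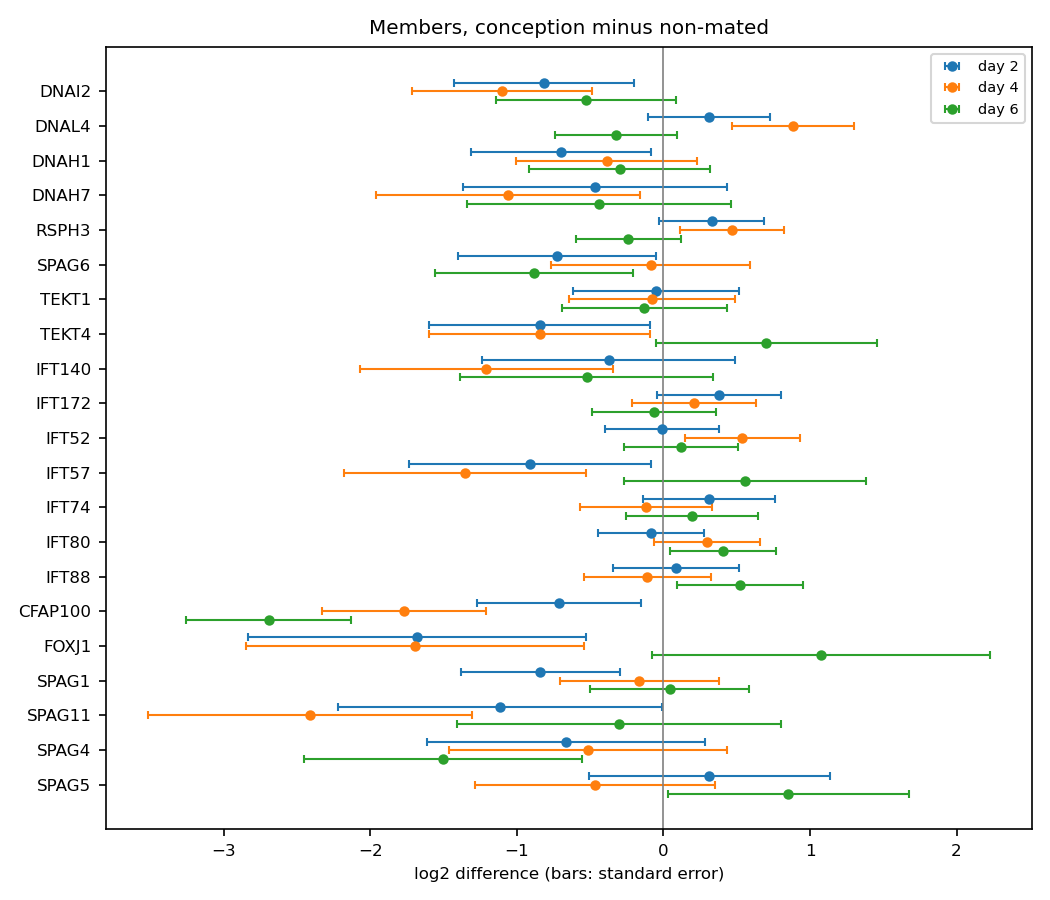
Log2 difference, conception minus non-mated (horizontal axis, bars are standard errors of the fit), of the 21 tested genes (vertical axis) at day 2 (blue), day 4 (orange) and day 6 (green). CFAP100 reaches -2.69 at day 6.

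Further cilium genes did not pass either. Another 33 genes fit the naming rule only by the current symbol or full name matched to their probes. Genes left under an older name would be missed in this count. Of the 33, 21 were tested, TPPP3 and CAPS, cytoplasmic markers of ciliated cells, among them. None of the 21 passed in any of the 11 comparisons. TPPP3 averaged 1.53 ± 0.29 at conception day 2 and 0.97 ± 0.96 at day 6, and CAPS 1.53 ± 0.58 and 1.44 ± 0.63 (SD, n = 4). The largest log2 differences with the smallest p from conception day 2 to day 6 were -1.59 ± 0.75 for the inner arm gene DNAH12 and -1.45 ± 0.77 for the spoke gene RSPH1 (SE). Of 41 tested genes in 4 further lists (ciliogenesis programme, dynein assembly and docking, other axoneme and cytoplasm genes, and transport), 27 were below 0 in that comparison (51.8% of all features). Among them 1, the nexin link gene GAS8, had an unadjusted p under 0.05 in limma (2.93% of all features in that direction). None of the 41 passed in that comparison (0.0164% of all features did). TMEM190 had the smallest p of these 41 for conception minus non-mated at day 6, -2.85 ± 0.88, with an adjusted p of 1.000 in limma.

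**Figure D5:**
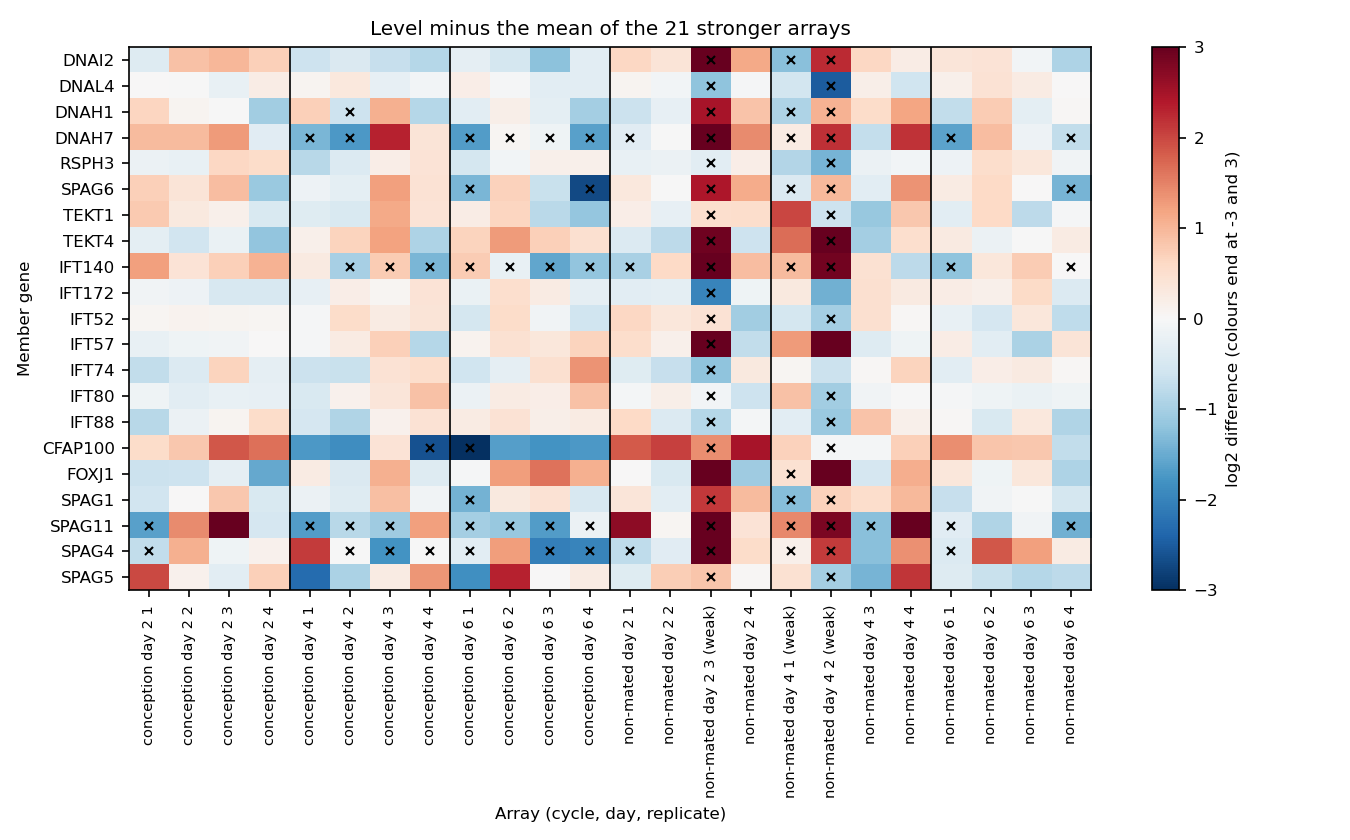
Level of each tested gene (vertical axis) on each array (horizontal axis) minus its mean over the 21 arrays that are not weak; colours end at -3 and 3, and crosses mark values not well above background. CFAP100 is below that mean on all 4 conception day 6 arrays and on 3 of 4 at conception day 4, the exception being replicate 3.

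Arrays of one group differed along the axonemal genes. The 10 tested axonemal genes are all but the IFT and remaining SPAG genes, and FOXJ1, a regulator and no axoneme part, is counted among them. Conception day 4 replicate 3 was the highest of its 4 arrays for 7 of these 10, with a median of 1.05 above the group median. It was also the highest for 11 of the 21 genes under other names. Other arrays stood out alike: conception day 2 replicate 3 and non-mated day 6 replicate 2 were each the highest for 7 of the 10, and conception day 6 replicate 2 and non-mated day 6 replicate 2 for 12 of the 21. With all arrays CFAP100 was at -2.67 ± 0.56 (SE) for conception day 4 minus day 2 (adjusted p = 0.23 in limma), and without replicate 3 of conception day 4 it passed at -3.29 (adjusted p = 0.0247). Over the 21 arrays that are not weak, the features not among the 25 genes most like the mean of the axonemal genes included ARMC3 (Pearson r = 0.90), a probe described as WD repeat domain 16 (0.88), ZBBX (0.85), CCDC19 (0.85), EFCAB6 (0.84), DNAH12 (0.82) and TTC25 (0.80), given as a description over arrays that share slides. CCDC19 and the WD repeat domain 16 probe were matched to no newer symbol, so either may be a rule gene under an older name. Against the mean of the other axonemal genes, SPAG6 (0.77) and DNAH7 (0.76) correlated most, followed by TEKT1 (0.58), DNAH1 (0.52) and CFAP100 (0.41). DNAI2 (0.18) and RSPH3 (0.17) followed it weakly, and FOXJ1 (-0.10), TEKT4 (-0.13) and DNAL4 (-0.36) were below 0. The feature most like CFAP100 itself was GATA2 (0.86), a transcription factor gene that is no member of any cilium list used here.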

How the data were processed

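Spot intensities were read from the scanner output the authors deposited. Per the file headers, Agilent Feature Extraction 9.5.3.1 had subtracted the background, while the submitters' processing notes name version 10.7.3.1. A table of log2 values, deposited by the authors with no stated baseline, was an alternative source. Each array received Cy3 cRNA amplified from 200 ng RNA, per the labels' protocols. Unflagged spots were averaged per probe (20217 probes), and log2 values were taken relative to each array's 75th percentile. The detection filter (3 of 4 arrays in any group) left 12780 probes and 12202 features. One limma 3.58.1 model (R 4.3.3) of 6 group means gave 11 comparisons and an F-test. Tests were two-sided, with Benjamini-Hochberg adjustment over all features and a threshold of 0.05. The model was also run on simulated levels with independent normal noise and no weak arrays. That run cannot tell how the model behaves with weak arrays. Arrays lay on 9 slides and 2 scan days. The scan range was inferred from the saturation value in the file headers, and 6 arrays, 5 of them conception, were taken as single range. Named genes were those that passed, the 10 smallest p of the F-test, the 3 smallest p in each direction per comparison, the genes named singly in the rule and the brightest of each role. The genes and lists were chosen with earlier results of these data known. The number of arrays limits the precision.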

Additional observations from a re-analysis of the deposited data

Results flagged for a closer look

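In 126 groups of 4 arrays (21 genes in 6 groups), 5 had an array whose gap to the nearest other array exceeded Dixon's 95% critical share of the group's range, where chance gives about 1 in 20. CFAP100 at conception day 6 replicate 1 read -4.97, not well above background, against -3.46 to -3.33 on the other arrays. The other 4 lie on weak arrays. IFT172 read 0.19 at non-mated day 2 replicate 3 and 0.73 at non-mated day 4 replicate 2. At non-mated day 2 replicate 3, DNAL4 (lowest) and TEKT4 (highest) both read -0.28, the floor value of that array.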

How the results depend on the processing

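Of the counts of genes that passed, 136 of 144 under alternative settings were unchanged. For conception day 6 minus day 2 the count of 1, CFAP100, became 0 with normexp background correction, quantile normalization, no filter on dim probes, the scan range as a term and a replicate block (adjusted p = 0.0920 in limma), and was 0 to 1 with 1 array left out. The F-test count of 1 became 0 with quantile normalization only. For the mean of the 3 days, conception minus non-mated, the count of 0 became 1 with normexp and with the filter set to all 4 arrays, and was 0 to 1 with 1 array left out (1 without conception day 4 replicate 3 or non-mated day 6 replicate 4); for conception day 4 minus day 2 it was 0 to 1. Replicate numbers do not pair the samples: of 60 pairs 20 correlated above 0.1, with a median of 0.02, and the replicate block changed no other count. Quantile normalization put the median of all features at 0.48 in conception minus non-mated at day 2 and turned the genes' own medians above 0 at days 2 (0.42) and 4 (0.039), over the 3 days (0.16) and for non-mated day 6 minus day 4 (0.23) and minus day 2 (0.13).

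Signs turned only in uncalled differences. Without the weak arrays IFT172 became -0.054 (conception minus non-mated, day 2) and -0.24 (non-mated day 6 minus day 4), RSPH3 -0.036 (day 4), DNAL4 -0.032 (mean of days) and IFT57 0.090 (non-mated day 6 minus day 4). Quantile normalization gave CFAP100 0.46 (day 2), SPAG1 0.34 (day 2) and RSPH3 0.60 (non-mated day 4 minus day 2). Normexp gave IFT57 -0.085 (conception day 6 minus day 2) and TEKT4 -0.15 (conception day 4 minus day 2) and -0.21 (difference between cycles in the day 6 minus day 2 step). With 1 array left out, IFT172 ran from -0.054 to 0.56 (day 2) and from -0.21 to 0.43 (non-mated day 6 minus day 4), CFAP100 from -0.018 to 0.69 (non-mated day 6 minus day 4), and SPAG5 from -0.10 to 1.28 (conception day 6 minus day 4). The cause was not tested. Dim genes on the 3 weak arrays have a bound only.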
